A study of Mus musculus with 31 samples.

Results

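Junb, Ier2 and Dusp5 are immediate early genes, and their rows, 3 of the 485 genes of the deposited table, were followed here through all 31 libraries of T cells from the mouse choroid plexus. They were chosen by name. The levels that entered the choice are those that kept a gene in the table after the authors removed genes of low abundance, and results of the comparisons below were known when the genes were chosen, so their tests are a description of these libraries and not independent evidence. The mice were female C57BL6/J. Housing was either enriched (EE), with wheels, toys and tunnels in a large cage for 4 weeks from weaning at 4 weeks of age, or standard (SE), in smaller cages that held no objects. CD4+ T cells came from EE (n = 9 libraries) and SE mice (n = 8), and CD8+ T cells from EE (n = 7) and SE mice (n = 7), with 6 to 20 sorted cells per library. In all 4 groups the tissue was digested with collagenase and the cells were sorted as CD45+ CD11b- CD3+ before lysis. Animals of an environment shared a cage within an experiment, so housing and cage cannot be told apart.

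Immediate early genes are switched on within minutes of a signal, without new protein synthesis, by factors such as SRF and CREB that are already present in the cell. In T cells the signal is classically the antigen receptor acting through calcium and MAP kinases, and the warm enzymatic digestion of a tissue is known to induce many of the same genes, a part that was not tested here. Junb encodes a subunit of AP-1, the dimeric transcription factor that pairs Jun and Fos proteins. Ier2 encodes a small nuclear regulator of transcription. Dusp5 encodes a nuclear phosphatase that removes phosphate from ERK and so closes the loop on the pathway that induces it.

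In the GRCm38 annotation (GENCODE vM21) Junb lies on chromosome 8 from 84974484 to 84978718 on the minus strand, and its coding transcript is a single exon of 1809 bases. Ier2 lies on the same strand of chromosome 8 from 84661331 to 84662852, also as a single exon, of 1522 bases, and 311631 bases separate it from Junb. Dusp5 lies on chromosome 19 from 53529109 to 53542431 on the plus strand, with 4 exons. None of the 31-base words of the 3 genes' transcripts occurred in a transcript of another gene. The coding exon of Junb shares no base with exons of Prdx2, a gene that overlaps the far end of Junb's span, although 173 bases do when a noncoding transcript of Junb is included, and 547 exonic bases of Dusp5 are also exonic in the antisense gene AC137853.2. The sources used here do not say whether counting used the strand, so UMIs of these bases cannot be assigned to Junb or Dusp5 alone.

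RefSeq promoter windows (GRCm38.p6, 300 bases) were at hand for 2 of the 3 genes, Junb and Dusp5. They are shown because serum response and cyclic AMP response elements are how many genes of this class are induced. The stretch of each window upstream of every annotated transcript start is printed 5′ to 3′ on the gene's strand, chr8:84978749-84978998 (minus) for Junb and chr19:53528895-53529108 (plus) for Dusp5. Capitals mark matches to the CArG box, the core of the serum response element, and to TGACG, the core of the cyclic AMP response element, on either strand.
Junb: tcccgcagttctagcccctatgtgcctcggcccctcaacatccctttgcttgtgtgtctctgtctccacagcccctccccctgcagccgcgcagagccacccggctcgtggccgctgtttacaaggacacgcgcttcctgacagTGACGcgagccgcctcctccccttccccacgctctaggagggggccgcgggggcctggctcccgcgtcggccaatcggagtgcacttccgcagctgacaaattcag
Dusp5: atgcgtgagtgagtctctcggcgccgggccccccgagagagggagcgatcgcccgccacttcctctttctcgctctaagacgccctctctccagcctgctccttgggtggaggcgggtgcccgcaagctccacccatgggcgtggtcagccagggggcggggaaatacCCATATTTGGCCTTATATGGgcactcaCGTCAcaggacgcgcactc
The Dusp5 window held 2 CArG boxes side by side, CCATATTTGG and CCTTATATGG, from 27 to 46 bases upstream of the GENCODE start, and a CArG box was present in 1.63% of all 32851 promoter windows of the same length. Each window held 1 match to TGACG, found in 20.8% of all windows. The Junb window also held TATAAA, in 13.6% of all windows, 25 to 30 bases upstream of the GENCODE start and outside the printed stretch. Neither window matched the full element TGACGTCA (1.79% of all windows) or the AP-1 site TGANTCA (7.81%), and the Dusp5 window held the GC box GGGCGG (35.7%). These matches describe letters in these windows and were not tested as binding sites.

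Levels below are normalised UMI counts, the number of distinct tagged molecules of a gene divided by the size factor of its library. UMI totals over the table ran from 1910 to 26395. The titles carry a first number, 1 or 2, whose meaning the labels do not give. The 19 libraries with number 1 held 1910 to 10089 UMIs and the 12 with number 2 held 7657 to 26395, and the number was treated as a possible batch. Cd8a had no UMI in the 17 CD4 libraries, but the authors had left out CD4 samples with Cd8a or Cd8b transcripts, so this is no check of purity. Cd4 had none in the 14 CD8 libraries and was also at 0 in CD4 SE replicate 2. In CD8 SE the lowest value of Cd8b1 was 0. Of the choroid plexus epithelium list, 2 of 12 markers were in the table, Ttr and Enpp2. Their sum ran from 76.4 through a median of 173 to 263 in CD4 and from 74.9 through 100 to 312 in CD8. The log2 difference, CD4 minus CD8, was 0.42 for Ttr (limma adjusted p = 0.121) and 0.20 for Enpp2 (adjusted p = 0.694). Of the myeloid list only Cst3 (1 of 14) was in the table, and B cell, endothelial and erythrocyte markers were not analysed here. The part of RNA from other cells in the results below was not tested. In pools of cells, fewer cells expressing a gene and less RNA per cell cannot be told apart.

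Junb, the AP-1 subunit, was found in every library, with 3 to 102 UMIs. In CD4 EE it ran from 11.7 through a median of 27.7 to 86.6, and in CD4 SE from 12.3 through 33.0 to 88.9. In CD8 EE it ran from 5.68 through 13.8 to 21.9, and in CD8 SE from 6.79 through 14.1 to 34.3. Of the 17 CD4 libraries, 15 lay above the CD8 median and 7 above the highest CD8 library, and 5 of the 14 CD8 libraries lay below the lowest CD4 library, so the cell types were shifted but overlapped. The means followed the order CD4 EE (40.4 ± 26.4, SD, n = 9), CD4 SE (36.6 ± 23.1, n = 8), CD8 SE (17.0 ± 9.18, n = 7) and CD8 EE (14.8 ± 6.14, n = 7). The steps within a cell type were smaller than the pooled SD of the neighbours (3.74 against 24.9 and 2.21 against 7.81), and the step between CD4 SE and CD8 SE was larger than it (19.6 against 18.1).

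Ier2, the small nuclear regulator, was found in 30 of the 31 libraries and was at 0 in CD4 EE replicate 5, the shallowest library. It ran in CD4 EE from 0 through a median of 10.7 to 14.5, and in CD4 SE from 1.90 through 7.99 to 33.0. It ran in CD8 EE from 5.68 through 9.22 to 12.3, and in CD8 SE from 2.07 through 8.58 to 9.55. All 4 groups overlapped, and 2 CD4 SE libraries, replicate 2 at 33.0 and replicate 8 at 28.1, stood above all others. Of the 17 CD4 libraries, 8 lay above the CD8 median and 6 above the highest CD8 library, and no CD8 library lay below the lowest CD4 library. The means were 12.3 ± 11.6 (CD4 SE), 9.40 ± 4.68 (CD4 EE), 9.23 ± 2.37 (CD8 EE) and 6.95 ± 3.00 (CD8 SE), and each step in that order was smaller than the pooled SD of its neighbours.

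Dusp5, the ERK phosphatase, was counted from few UMIs: it was at 0 in CD8 EE replicate 4 and CD8 SE replicate 4, and 12 of the 31 libraries held at most 3 UMIs of it. It ran in CD4 EE from 1.37 through a median of 6.17 to 10.7, and in CD4 SE from 1.90 through 4.19 to 10.2. It ran in CD8 EE from 0 through 2.31 to 4.15, and in CD8 SE from 0 through 3.18 to 8.52. Of the CD4 libraries, 12 lay above the CD8 median and 4 above the highest CD8 library. The means fell in the same order as for Junb, from 6.45 ± 3.38 in CD4 EE through 4.83 ± 2.99 and 3.43 ± 2.75 to 2.31 ± 1.27 in CD8 EE, and each step was smaller than the pooled SD of its neighbours.

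**Figure D1:**
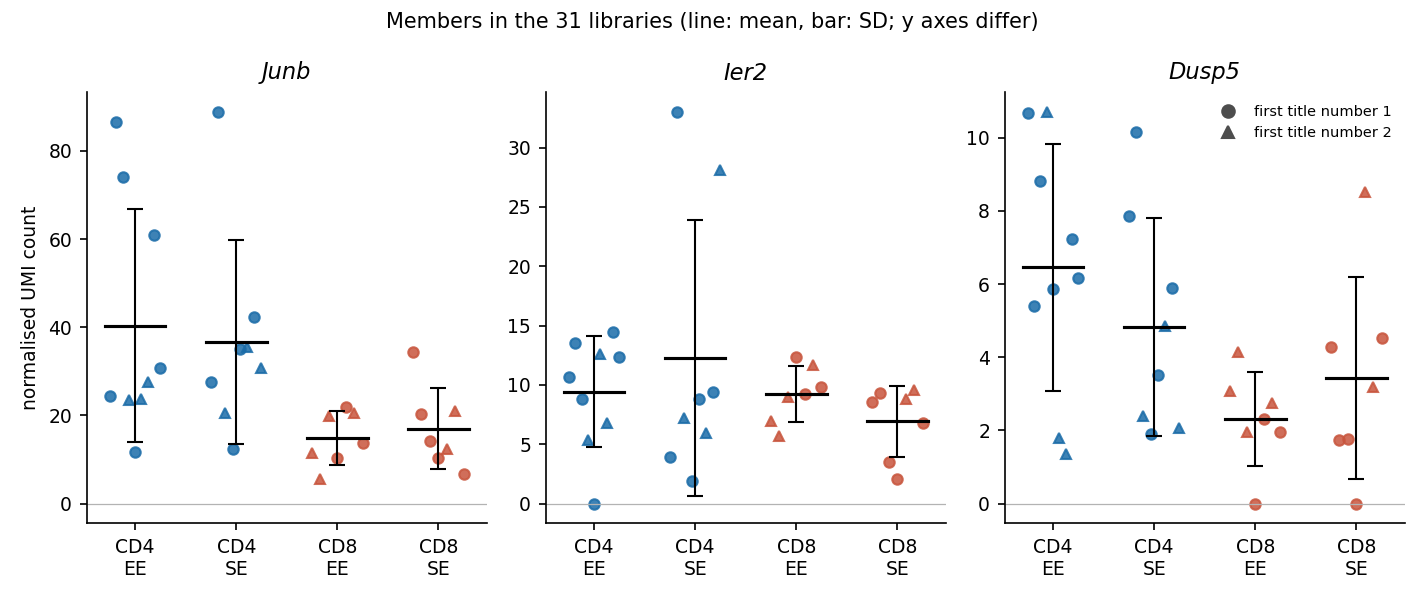
Normalised UMI counts (y axis, a scale of its own in each panel) of Junb, Ier2 and Dusp5 in the 4 groups, 1 point per library, circles for first title number 1 and triangles for 2, with the mean (line) and SD (bar) of each group. CD4 points lie higher for Junb, up to 88.9 against 34.3 in CD8, and 6 CD4 points of Ier2 lie above its highest CD8 point of 12.3 while others reach down to 0.

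The series names CD4 against CD8 as a comparison, and Junb was the member that differed in it. Junb was 2.20-fold higher in CD4 than in CD8 libraries (log2 difference 1.13, SE 0.246, 95% interval 1.56 to 3.09-fold, limma adjusted p = 0.00178 over all 485 genes, n = 17 and 14). Of all genes tested, 7.42% passed this threshold (4.33% higher in CD4 and 3.09% lower), so 1 of 3 members stands beside a background of 36 of 485 genes, 21 higher and 15 lower. With each library scaled to the same total over the table, the split was 15 higher and 23 lower, and Junb was still higher (1.06, adjusted p = 0.00287). In the 10 mice that gave both cell types, with the mouse as a fixed replicate block, 23 genes were called and Junb was among them (log2 difference 1.00, adjusted p = 0.0171). The difference was 1.24 among libraries with first number 1 (adjusted p = 0.0185) and 0.84 among those with number 2, where it missed the threshold (adjusted p = 0.0717). The difference between these values was itself -0.39 (SE 0.5, limma adjusted p = 0.876). Every fit that left out 1 library kept the call, with differences from 1.04 to 1.23, and without CD4 SE replicate 2, the library with no Cd4 UMI, it was 1.04 (adjusted p = 0.00382).

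Ier2 did not pass the test between CD4 and CD8 (1.06-fold, 95% interval 0.68 to 1.65-fold, limma adjusted p = 0.924). The value turned negative within mice (-0.26, adjusted p = 0.744) and without CD4 SE replicate 2 (-0.05), so these data give it no direction. Whether Junb and Ier2 differed in their response to cell type was tested on the log2 ratio of Junb to Ier2 within each library, chosen after the values were seen. The ratio was 1.90 ± 0.837 (SD, n = 17) in CD4 and 0.85 ± 0.689 (n = 14) in CD8 libraries, a difference of 1.05 (two-sided permutation test, 100000 resamples, p = 0.00092, adjusted over 3 gene pairs 0.00276). The difference in the ratio was 1.16 within number 1 (exact permutation p = 0.00622) and 0.77 within number 2 (exact permutation p = 0.0714). In the pooled libraries Junb differed between the cell types by more than Ier2, and the 12 libraries of number 2 alone did not pass. Since the ratio was chosen after the values were seen, its p-value is a description of these libraries and not independent evidence. The permutation treated libraries as independent and had no term for environment, although 10 mice gave both cell types.

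Dusp5 stood between them. It was 1.77-fold higher in CD4 (log2 difference 0.83, SE 0.305, 95% interval 1.16 to 2.71-fold), with an unadjusted p of 0.00961 and an adjusted p of 0.0818 in limma over all genes, and so did not pass. Among libraries with number 1 the difference was 1.45 and passed (adjusted p = 0.0342), while among those with number 2 it was -0.21 (adjusted p = 0.804). In number 1 all 8 CD8 libraries held at most 3 UMIs of Dusp5, 11 UMIs in all, against 47 in the 11 CD4 libraries. In the deeper libraries of number 2 the 6 CD8 libraries held 68 UMIs and the 6 CD4 libraries 48. Of these, CD8 SE replicate 5 held 29 and CD4 EE replicate 4 held 16. The normalised means of number 2 were close, at 3.94 ± 2.36 (SD) in CD8 and 3.87 ± 3.57 in CD4. The change between the numbers was -1.64 on the log2 scale (SE 0.599, limma adjusted p = 0.434, a test added after the values were seen), so it was not called over all genes. On the recovered counts the pooled difference was 0.48 in edgeR (adjusted p = 0.39) and 0.67 in DESeq2 (adjusted p = 0.216). The log2 ratio of Junb to Dusp5 differed between the cell types by 0.31 (permutation p = 0.385), with -0.20 within number 1 (exact permutation p = 0.649) and 1.04 within number 2 (0.0952). That of Ier2 to Dusp5 differed by -0.74 (permutation p = 0.094, adjusted 0.141), with -1.36 within number 1 (exact permutation p = 0.00966) and 0.28 within number 2 (0.699). Both differences in ratio changed sign between the numbers, and whether they differed between the numbers was not tested.

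The 10 mice with both cell types gave the comparison within an animal, 7 with number 1 and 3 with number 2. For 1 of the number 2 mice the CD8 value is the mean of CD8 SE replicates 5 and 6, which may be a pool of animals 5 and 6 and not a single mouse. Junb was higher in the CD4 library in 8 of 10 mice, with a mean log2 difference of 1.00 ± 0.982 (SD), in 5 of 7 with number 1 and 3 of 3 with number 2. Dusp5 was higher in CD4 in 8 of 10 mice, by 0.95 ± 0.955, in 7 of 7 with number 1 and 1 of 3 with number 2. Ier2 was higher in CD4 in 5 of 10 mice, in 4 of 7 with number 1 and 1 of 3 with number 2. Its mean log2 difference over the 10 mice, CD4 minus CD8, was -0.25 ± 1.44. The widest within-mouse difference of Ier2, -3.74, came from the mouse whose CD4 library held no Ier2 UMI, and the widest of Dusp5, 2.78, from the same mouse, whose CD8 library held no Dusp5 UMI.

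**Figure D2:**
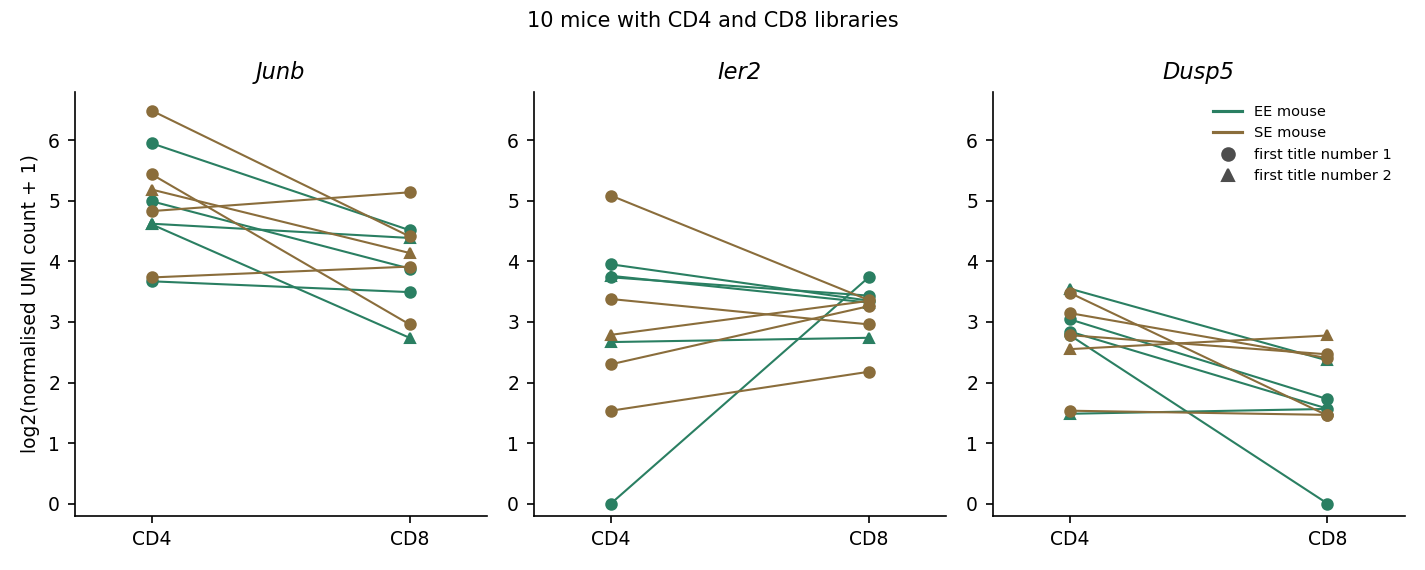
log2(normalised UMI count + 1) of Junb, Ier2 and Dusp5 in the CD4 and CD8 libraries of the 10 mice that gave both, 1 line per mouse, coloured by environment, with circles for first title number 1 and triangles for 2. For 1 SE mouse the CD8 value is the mean of 2 libraries. Lines fall from CD4 to CD8 in 8 of 10 mice for Junb and Dusp5 and in 5 of 10 for Ier2.

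Housing was the question of the study, and no member passed the test between EE and SE in either cell type. Of all genes tested 0% passed in CD4 (0 of 483, with 18 at an unadjusted p under 0.05, and 1 gene each by edgeR and DESeq2) and 0% in CD8 (0 of 484, with 12, and 0 genes by edgeR and DESeq2). In CD4 the log2 differences, EE minus SE, were 0.08 for Junb (SE 0.343, 95% interval 0.651 to 1.72-fold), -0.20 for Ier2 (SE 0.484, 0.44 to 1.73-fold) and 0.34 for Dusp5 (SE 0.389, 0.729 to 2.19-fold), each with a limma adjusted p of 0.992. In CD8 they were -0.15 for Junb (SE 0.314, 0.577 to 1.41-fold), 0.45 for Ier2 (SE 0.317, 0.871 to 2.15-fold) and -0.28 for Dusp5 (SE 0.491, 0.409 to 1.66-fold), with adjusted p of 0.991, 0.957 and 0.991. The intervals still hold a 1.72-fold rise of Junb in CD4 and a fall to 0.577-fold in CD8, so changes of this size remain compatible with these libraries. The intervals are not adjusted for the number of genes tested, and a change outside them could also miss the adjusted threshold. In CD4, the Junb difference was negative within number 2 (-0.18), and in CD8 the Ier2 difference was negative within number 2 (-0.17). The 12 heat shock and chaperone genes of the table, a second group known to rise on handling, summed to 166 ± 48.3 (SD, n = 9) in CD4 EE and 267 ± 81.9 (n = 8) in CD4 SE. Of all 483 genes tested in CD4, 46.8% were higher in EE, while all 12 chaperone genes were lower and 0 of them passed. Whether they differed from the members in this was not tested. The effect of EE did not pass the test of a difference between the cell types for any member (0.23 for Junb, -0.65 for Ier2 and 0.62 for Dusp5, each with a limma adjusted p of 0.976, where 0% of 485 genes passed, 12 had an unadjusted p under 0.05, and edgeR and DESeq2 called 0).

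**Figure D3:**
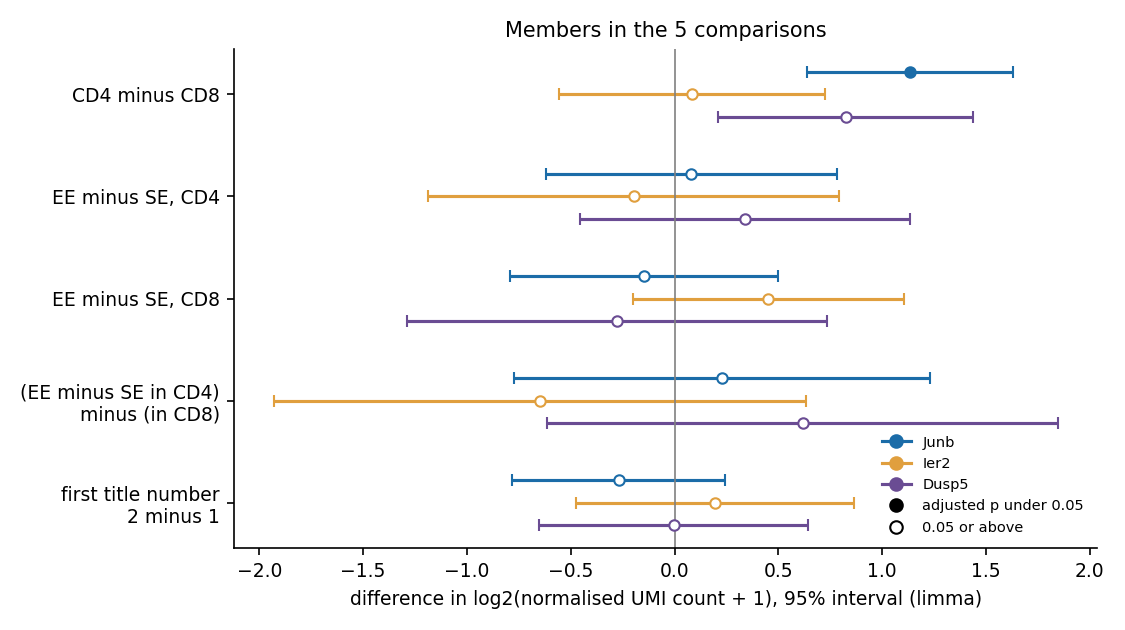
Differences of Junb, Ier2 and Dusp5 in log2(normalised UMI count + 1) in the 5 comparisons, with 95% intervals from limma, filled where the adjusted p over all genes was under 0.05. Junb in CD4 minus CD8 (1.13) is the only filled point, and the intervals of EE minus SE include 0 for all 3 genes.

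The first title number did not move the mean of any member past the threshold, with log2 differences, number 2 minus number 1, of -0.27 for Junb (SE 0.255, limma adjusted p = 0.599), 0.19 for Ier2 (SE 0.332, 0.782) and -0.0049 for Dusp5 (SE 0.322, 0.996). The value of Dusp5 averages -0.80 within CD4 (adjusted p = 0.204) and 0.97 within CD8 (adjusted p = 0.413), neither past the threshold. In the same fit 10.7% of genes passed, 34 higher (7.01%) and 18 lower (3.71%) with number 2. The split was 52 and 17 with equal library totals and 46 and 58 in DESeq2, where the median of all genes moved from 0.03 to -0.13. Cd3g, 1 of 11 T cell identity genes, and Ttr, 1 of 2 choroid plexus epithelium genes, were lower with number 2. The other 10 T cell identity genes did not pass, and 4 of the 11 differences were positive. Of the 12 chaperone genes 3 were higher with number 2, Hspa1a, Hspa1b and Hspe1, and 9 did not pass. Positive differences were 9 of these 12, beside 52.0% of all genes.

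The spread between libraries was set beside the spread that counting error alone gives. Over the 17 CD4 libraries the SD of Junb was 3.84 times the counting SD, the 4th highest ratio of 483 genes, whose median was 1.35. At a given relative spread this ratio is larger for a gene with more UMIs, so its places do not rank relative spread. As a percentage of the mean, with counting error included, the SD in CD4 was 62.7 for Junb, 79.0 for Ier2 and 56.5 for Dusp5. In the 11 CD4 libraries of number 1 the level was 45.0 ± 28.2 (SD), with 4 libraries between 60.9 and 88.9 and a ratio of 3.37, the 2nd highest. In the 6 of number 2 it was 26.9 ± 5.49, between 20.6 and 35.4, with a ratio of 1.54, in place 228. In CD8 libraries the ratio of Junb was 1.81, in place 39 of 484 genes. Within CD8 it was 1.59 with number 1 and 2.49 with number 2. The ratio of Ier2 went the other way in CD4, with 2.19 in number 1 and 4.02 in number 2 (place 7). Its SD was 8.78 in number 1 and 8.76 in number 2, while its counting SD fell from 4.01 to 2.18. In number 2 the highest Ier2 level was 28.1, in CD4 SE replicate 8, against a median of 7.01. The ratio of Dusp5 also rose, from 0.826 to 2.83 (place 36), with SDs of 2.66 and 3.57 and counting SDs of 3.22 and 1.26. In CD8 the ratios of Ier2 were 0.906 and 1.07 and those of Dusp5 0.903 and 1.64 (place 123), the value in number 1 resting on at most 3 UMIs per library. These places are a description of these libraries and were not tested.

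Across libraries the 3 genes followed each other in part. Spearman's rho over the 31 libraries was 0.479 between Junb and Ier2, 0.474 between Junb and Dusp5 and 0.101 between Ier2 and Dusp5. With group and number means removed it was 0.565, 0.158 and 0.084. Within number 1 the values were 0.563, 0.647 and 0.37 (19 libraries), and within number 2 they were 0.154, -0.245 and -0.524 (12 libraries). Libraries share mice, size factors and depth, so these values are given with no test. CD4 SE replicate 2 held the highest level of all 3 genes in its group, at 88.9, 33.0 and 10.2, from 35, 13 and 4 UMIs.

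The gene most like Junb was Nr4a1, which encodes the nuclear receptor Nur77, itself an immediate early product of antigen receptor signalling. Its rho with Junb was 0.777 over 31 libraries, 0.875 within number 1, 0.594 within number 2, 0.77 within CD4 and 0.345 within CD8. The next for Junb were the nuclear RNA Malat1 (0.647), the ubiquitin gene Ubb (0.64), Ly6e (0.638) and Tnfrsf18, which encodes the TNF family receptor GITR (0.63). With group and number means removed these 4 values were 0.365, 0.569, 0.246 and 0.445, and that of Nr4a1 was 0.675. Ly6e had a rho with Junb of 0.272 within CD4 and 0.182 within CD8. Nr4a1 was also the gene most like Dusp5 (0.609), ahead of Malat1 (0.598), Crem, a regulator of cyclic AMP response elements (0.545), and the ferritin gene Ftl1 (0.539). The rho of Nr4a1 with Dusp5 was 0.679 within number 1, 0.371 within number 2, 0.63 within CD4 and 0.108 within CD8. Malat1 stood at 199 ± 54.7 in the CD4 libraries of number 1 and at 5.32 ± 1.88 in those of number 2, and its rho with Dusp5 was -0.084 within number 2. Genes among the 5 most like Ier2 were Tapbp (0.544), Dync1h1 (0.543), Calm2 (0.537) and Tsc22d3 (0.533), and Junb came 10th.

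**Figure D4:**
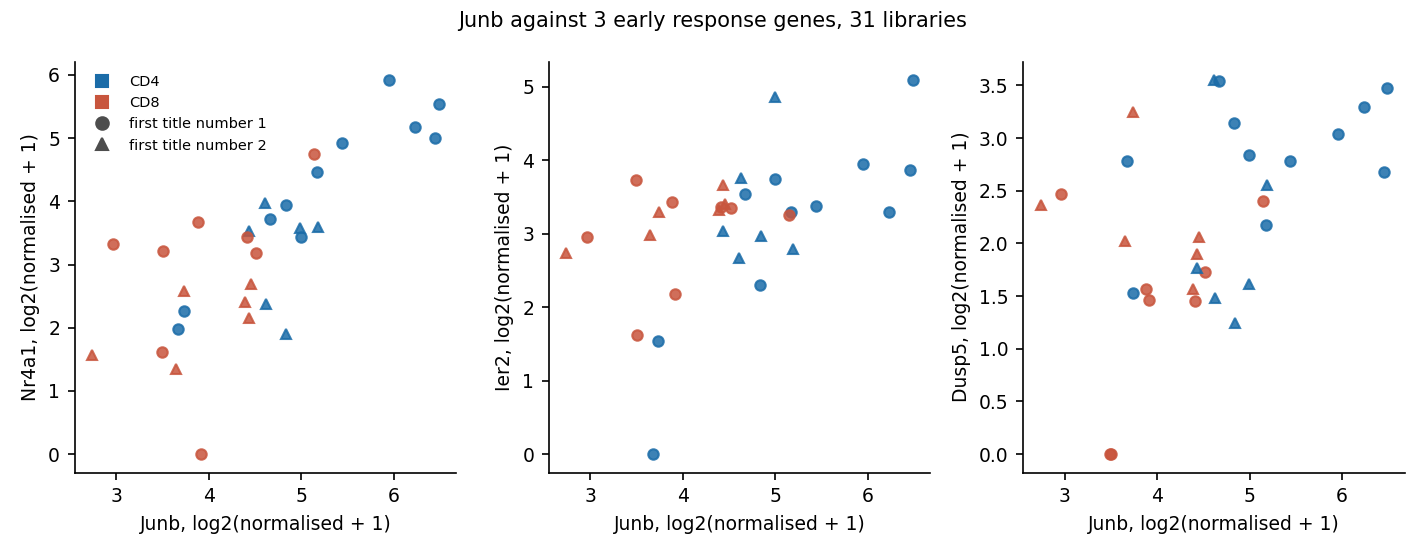
log2(normalised UMI count + 1) of Nr4a1, Ier2 and Dusp5 (y axes) against Junb (x axis), 1 point per library, blue for CD4, red for CD8, circles for first title number 1 and triangles for 2. Nr4a1 follows Junb most closely (rho 0.777), and the libraries highest in Junb are CD4 libraries of number 1.

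Of 72 genes in 4 lists of early response genes, 19 were in the table. Junb was the only one of 11 AP-1 genes and partners there, and Fos, its usual partner, was not analysed here. Between CD4 and CD8, 4 of the 19 were higher in CD4, Junb, Nr4a1, Klf6 and Odc1, and 1 was lower, Nr4a2, beside 4.33% higher and 3.09% lower of all genes tested. The median log2 difference was 0.46 over the 19 genes and 0.07 over all genes, and 15 of the 19 differences were positive, as were 275 of the 485 over all genes (56.7%).

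Nr4a1 ran in CD4 from 2.73 through a median of 12.2 to 59.4 and in CD8 from 0 through 5.23 to 25.7. It was 2.44-fold higher in CD4 (limma adjusted p = 0.0264). Its relative Nr4a2, which encodes Nurr1, went the other way: it ran from 0 through 0.96 to 7.06 in CD4 and from 0 through 4.07 to 13.0 in CD8, a log2 difference of -1.26 (adjusted p = 0.0155). Odc1, the rate-limiting enzyme of polyamine synthesis, ran from 0 through 7.17 to 12.9 in CD4 and from 0 through 1.86 to 6.18 in CD8 and was 2.74-fold higher (adjusted p = 0.00959). Klf6, a zinc finger transcription factor, ran from 2.05 through 3.53 to 17.8 in CD4 and from 0 through 1.86 to 4.80 in CD8 and was 1.83-fold higher (adjusted p = 0.0347). The groups overlapped for each of these genes. With the mouse as a fixed replicate block, Nr4a1 and Odc1 kept the call (adjusted p = 0.039 and 0.000233), while Nr4a2 (0.0505) and Klf6 (0.058) missed the threshold. Odc1 and Nr4a2 kept the call in all 31 fits that left out 1 library, Nr4a1 in 27 and Klf6 in 24. Nr4a1 lost it without CD4 EE replicate 8, CD8 EE replicate 4, CD4 SE replicate 2 or CD8 SE replicate 3 (adjusted p up to 0.0536). Klf6 lost it without CD8 EE replicate 3 or 4, CD4 SE replicate 2, 4 or 7, or CD8 SE replicate 2 or 5 (up to 0.0705). Within number 1 Junb, Odc1 and Dusp5 passed, and within number 2 Btg2 and Nr4a2.

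The other listed regulators did not pass between CD4 and CD8: the anti-proliferative genes Btg1 and Btg2 were at 0.46 and 0.53 on the log2 scale, Id2 at 0.38 and Klf2 at -0.19. Dusp1, the other MAP kinase phosphatase of the table, was at 0.64 (limma adjusted p = 0.325). Among feedback genes the NF-kappaB inhibitor Nfkbia was at 0.98 (adjusted p = 0.051), Ppp1r15a at 0.69, Zfp36l1 at 0.45, Rgs2 at 0.45, Mcl1 at 0.36, Zfp36l2 at -0.07 and Rgs1 at -0.09. None of the 19 genes passed in EE against SE in either cell type, in the difference between cell types, or between the numbers. Between the numbers 6 of the 19 had an unadjusted limma p under 0.05, where 10.7% of all genes passed the adjusted threshold. Nr4a1 was lower with number 2 (-0.89), and Klf2, Mcl1, Zfp36l1, Zfp36l2 and Odc1 were higher (0.71 to 1.01). For EE against SE in CD4, Mcl1, a survival factor of the Bcl2 family, had the lowest p of the 19 genes, at -1.17 (unadjusted p = 0.0069, limma adjusted p = 0.666). Of the 12 chaperone genes 1, Hsp90aa1, was higher in CD4 (0.78, adjusted p = 0.0448), a share near the 7.42% of all genes called, and all 12 differences were positive, beside 56.7% of all genes. Of 4 T cell activation products in the table, the CD8 effector genes Ccl5, Nkg7 and Xcl1 were lower in CD4, and Ifng was at 0.58 (adjusted p = 0.383).

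**Figure D5:**
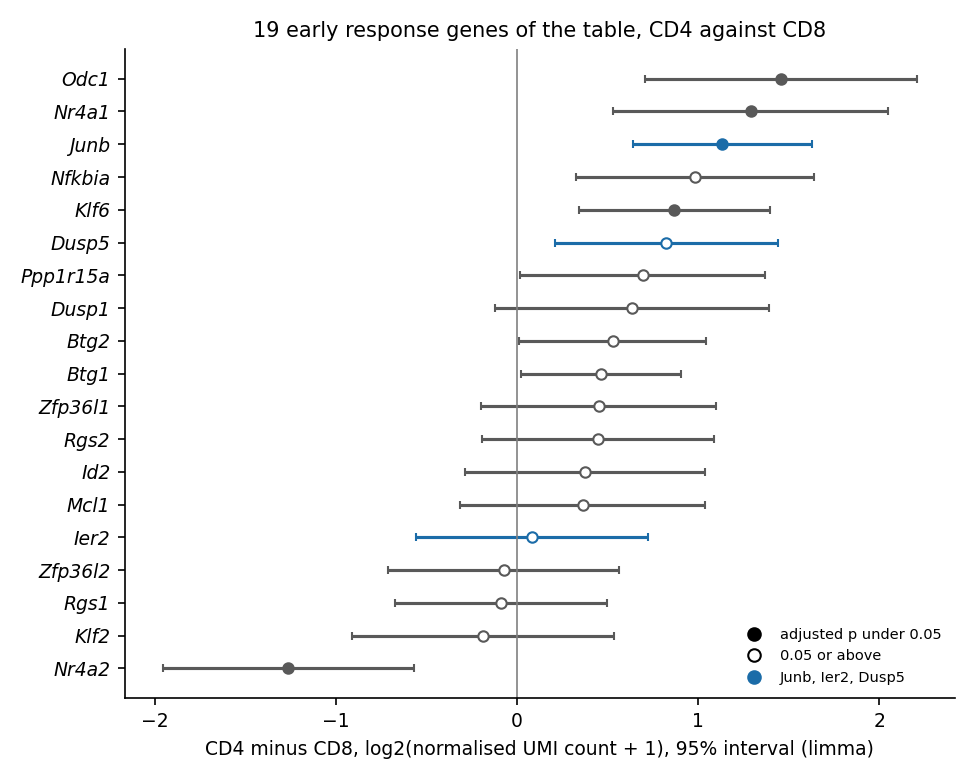
CD4 minus CD8 difference in log2(normalised UMI count + 1) of the 19 early response genes of the table, with 95% intervals from limma over 17 CD4 and 14 CD8 libraries, filled where the adjusted p over all genes was under 0.05 and blue for Junb, Ier2 and Dusp5. Odc1, Nr4a1, Junb and Klf6 are filled above 0 and Nr4a2 below 0 (-1.26).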

How the data were processed

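RNA of 31 pools of sorted T cells was reverse transcribed with a template-switch oligonucleotide that carries a UMI. The authors trimmed reads with cutadapt, mapped them with STAR 2.4.0a to mm10 (submitters' processing notes), counted UMIs per gene, left out CD4 samples with Cd8a or Cd8b transcripts, removed low-abundance genes and divided by DESeq2 size factors. The deposited values are this normalised signal for 485 genes. Every value was a whole multiple of what 1 UMI is worth in its library (100% within 0.01 UMI), so counts were recovered.

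Groups came from the sample titles. Tests were two-sided in limma 3.58.1 (R 4.3.3, trended prior) on log2(value + 1) over all genes above 0, Benjamini-Hochberg adjusted, threshold 0.05, and fold changes on this scale understate changes of low genes. CD4 against CD8 had the environment as a term. edgeR 4.0.16 and DESeq2 1.42.0 on recovered counts, other pseudocounts, a filter on low means, equal totals, each first title number alone and each library left out were alternatives. Single ratios were tested by permutation of cell type over libraries (scipy 1.17.1), with no term for mouse or environment. Libraries were assigned to the same mouse where environment and both title numbers matched. By this rule CD8 SE replicates 5 and 6 were treated as a single mouse, but their column names carry both animal numbers, 5 and 6, so they may be a pool. They may not be separate animals, which would make p-values reflect technical spread in part. CD4 and CD8 libraries of the same mouse had a consensus correlation of 0.101 in limma. All columns of values were used. Replicate libraries of a group differed by more than sampling noise. Scripts were tested on simulated data.

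The members and lists were chosen with earlier results of these data known. Named genes are the members, the 5 genes with the highest rho to each, the early response genes in the table, heat shock and T cell activation genes past the threshold, and the sorting genes. Of the genes with the highest rho, 2 are not reported here. Genes named outside it were chosen after their values were seen. Coordinates are GENCODE vM21 (GRCm38), and promoters are from RefSeq. Intervals cover the spread between libraries, and UMI counts carry counting error only. T cell identity genes (11 of 14 in the table) were summed to 56.8 to 105 in CD4 and 62.6 to 116 in CD8 libraries.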

Additional observations from a re-analysis of the deposited data

Results flagged for a closer look

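In CD4 SE, replicate 2 stood far above the other libraries for Junb, at 88.92 normalised UMIs, with a gap to the next library of 0.608 of the range of the group against a critical value of 0.526 for 8 libraries. Chance marks about 1 in 20 groups, and 12 groups were examined here. The library held 2657 UMIs from 12 cells and no Cd4 UMI. Without it the CD4 against CD8 difference of Junb was 1.04 (limma adjusted p = 0.00382), and the EE against SE difference in CD4 was 0.29 (adjusted p = 0.994).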

How the results depend on the processing

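Of 146 values of the 3 genes under other settings, 136 kept their direction and side of the threshold, 1 lost the threshold, 1 gained it and 8 changed sign, and of 372 with 1 library left out 345 kept both and 27 changed sign. The changed signs were of values that did not pass. Restricting CD4 against CD8 to number 2 took Junb below the threshold (0.843) and turned Dusp5 (-0.206), and number 1 alone brought Dusp5 past it (1.45). Number 2 alone also turned EE against SE for Junb in CD4 (-0.18) and Ier2 in CD8 (-0.17). The fixed mouse replicate block turned Ier2 (-0.258), called 23 genes in place of 36, and changed no other member's call. With duplicate correlation as a mouse replicate block 53 genes were called and Junb was at 1.12. Dusp5 between the numbers was 0.0608 with pseudocount 0.5, 0.0054 in edgeR, 0.0611 with equal totals, -0.798 within CD4 and 0.973 within CD8. With 1 library left out, EE against SE in CD4 ran from -0.105 to 0.288 for Junb and from -0.447 to 0.19 for Ier2, and in CD8 from -0.323 to 0.042 for Junb, CD4 against CD8 from -0.0472 to 0.286 for Ier2, and number 2 against 1 from -0.184 to 0.165 for Dusp5. The count of genes called between CD4 and CD8 was 14 with a mean of at least 5, 55 in DESeq2, 20 within each number, and 24 to 44 with 1 library left out (24 without CD8 EE replicate 4). Between the numbers it was 90 in edgeR, 104 in DESeq2, 25 within CD4 and 10 within CD8. EE against SE called 1 gene in CD4 with pseudocount 4, edgeR or DESeq2 and 1 in CD8 within number 1. The cause of these changes was not tested. Dusp5 has no value with the filter on means except in CD4, since its mean fell under 5. Low totals limit Dusp5 most: 3 UMIs correspond to a value of 8.81 in the shallowest library.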
